A study of Arabidopsis thaliana with 4 samples.

Results

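JAZ proteins (JASMONATE ZIM-DOMAIN) are the repressors that hold jasmonate responses off in plants. This account follows 10 JAZ genes of Arabidopsis thaliana in seedlings that shared the air of a plate with Pseudomonas syringae DC3000. The genes are JAZ1 (AT1G19180), JAZ2 (AT1G74950), JAZ3 (AT3G17860), JAZ5 (AT1G17380), JAZ6 (AT1G72450), JAZ7 (AT2G34600), JAZ8 (AT1G30135), JAZ9 (AT1G70700), JAZ10 (AT5G13220) and JAZ12 (AT5G20900). They were chosen by locus identifier and not by their values, though with earlier results of these data known. All 10 were found on the array among 29030 loci, and all 10 were among the 22694 genes tested. By their locus codes 6 lie on chromosome 1, 1 on chromosome 2, 1 on chromosome 3 and 2 on chromosome 5. They were read by 13 probes, with a second probe for JAZ6, JAZ10 and JAZ12. Each probe was spotted once per array.

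In a plant cell at rest, JAZ proteins bind the transcription factor MYC2 and its relatives and, through the adaptor NINJA or directly, recruit the co-repressor TOPLESS to jasmonate-responsive genes. When the hormone jasmonoyl-isoleucine accumulates, it joins JAZ proteins to the F-box protein COI1, JAZ proteins are degraded and the transcription factors are freed. Most JAZ genes are themselves switched on by this release, which restores repression, so that their transcripts are widely used as early readouts of jasmonate signalling. P. syringae DC3000 makes coronatine, a mimic of the hormone that acts through COI1, when it infects leaves.

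The plants were ecotype Col-0, the standard laboratory line, with no mutant or transgene in either group. Control plates held plants alone, and exposed plates held plants in the upper part and P. syringae DC3000 in the lower part, so that the comparison asks which transcripts respond to microbial volatile compounds. Per the series design the plants were 8 days old and were exposed for 12 hours, but the sample labels state 12 days, and the sources used here do not settle which holds. There were 4 samples, each a two-colour Agilent array on which Cy3 marks RNA of control plants and Cy5 that of exposed plants, so every log2 ratio below is exposed over control. No dyes were swapped, so a preference of a probe for 1 dye cannot be told apart from exposure. Nothing in the labels says that the RNAs came from separate plants, so the spread behind each p-value, that among 4 arrays, may be technical. The RNA came from undivided plants as far as the labels say, and fewer cells of a type and less RNA per cell cannot be told apart in it.

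Array 4 stood apart from the other arrays. Its median gene spot read 575.5 scanner units for control and 1286 for exposed RNA, against 292 to 362.5 and 336 to 373 on arrays 1 to 3. Across genes, which are not independent replicates, its log2 ratios correlated with the others with r = 0.220 to 0.288, against 0.648 to 0.779 among arrays 1 to 3. Arrays 1 and 2 shared one slide and scan, and arrays 3 and 4 the other. Root and shoot markers were both present, well above background in both channels. Of 8 root markers 2 rose, PYK10 (log2 ratio 0.61) and PRP3 (0.44), and 6 were not called, among them CASP1 (0.27). Also not called were COBL9, above 0 on all arrays (0.57, limma adjusted p = 0.0816), and WER, below 0 on all arrays (-0.36, limma adjusted p = 0.0790). COBL9 and WER were added to the named genes after their values were seen. Without array 4, 4 root markers were called higher and 1 lower, where 16.8% and 14.2% of all genes were. Of 8 shoot markers RBCS1A (0.49) and PSBO1 (0.49) rose and LHCB2.1 (-0.54) and AS1 (-0.49) fell. With all 4 arrays, 1.58% of all tested genes rose and 1.82% fell. Other probes of the same genes gave other values, with the lowest at -0.039 for PYK10, -0.031 for RBCS1A and -0.11 for PSBO1, and LHCB2.1 at -0.17. The PSBO1 spot of array 1 was left out as an outlier. The part of tissue makeup in the JAZ ratios was not tested.

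No JAZ gene passed the test. With limma and Benjamini-Hochberg adjustment over 22694 genes, 0 of 10 had an adjusted p below 0.05, where 3.40% of all tested genes did (771 genes). There were 0 JAZ genes higher and 0 lower, against 358 genes (1.58%) and 413 genes (1.82%) of the whole array. At an unadjusted p below 0.05 there were 2 of 10, JAZ8 and JAZ12, where 24.8% of all genes reached that level. The 10 mean ratios ran from -0.26 to 0.17, with 4 above 0 and 6 below. Their median was -0.029, and that of all tested genes was -0.0046. The median size of the ratio without its sign was 0.16 for the JAZ genes and 0.12 for all genes. Both values include array 4. Without array 4 the means of JAZ3, JAZ5 and JAZ10 were smaller in size, at -0.11, -0.00075 and -0.022. Those of JAZ1 and JAZ9 were larger, at 0.20 and 0.077. The absence of calls does not show that the genes were unchanged, and the intervals below say which changes the arrays leave possible. Without array 4, 1 JAZ gene was called higher and 1 lower, where 31.1% of all genes were called.

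**Figure D1:**
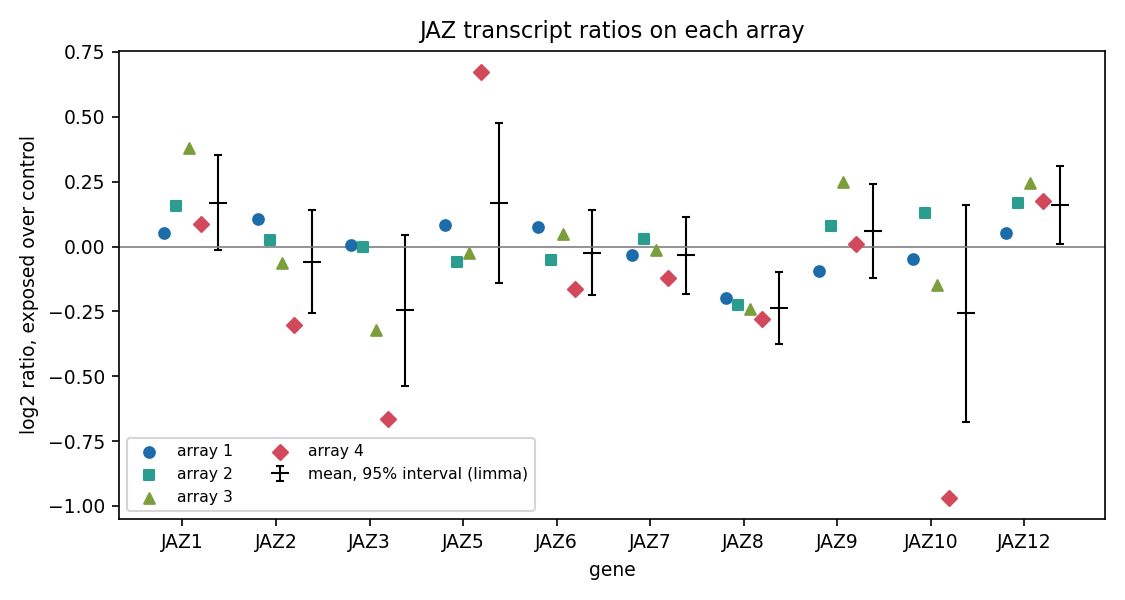
Log2 ratio of exposed over control (vertical axis) for each of the 10 JAZ genes (horizontal axis) on arrays 1 to 4 (coloured symbols), with the mean and its 95% interval from limma (black). JAZ8 is below 0 and JAZ1 and JAZ12 are above 0 on all 4 arrays, while array 4 lies farthest from the rest for JAZ3, JAZ5 and JAZ10.

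JAZ8 had the lowest p of the family. Its protein lacks the usual hormone-dependent degradation motif, resists jasmonate-triggered breakdown and binds TOPLESS directly. The log2 ratios were -0.20, -0.23, -0.24 and -0.28 on arrays 1 to 4, all below 0 and close together. The mean was -0.24 ± 0.058 (SE, n = 4, 1.18-fold lower, limma adjusted p = 0.0781), with a 95% interval of -0.38 to -0.097. JAZ8 was also the dimmest of these probes. Before any correction its spot read 91.5, 86, 91 and 155 units in the control channel, over a local background of 48.5 to 57. In the exposed channel it read 66, 68.5, 72 and 265 units, over a background of 53 to 59.5. The control spot was well above background on 3 arrays and the exposed spot on 2, so on array 1 neither channel was well above background. JAZ8 was tested only because its control channel, the higher one, met the filter of 3 arrays above background. A probe that passes in this way leans towards a ratio below 0, so the fold, interval and p describe a signal partly at background. Both channels were marked well above background on arrays 3 and 4 alone, at -0.24 and -0.28. On array 4 that mark was given to 97.2% of control and 99.6% of exposed spots. The shares were 75.1% to 75.4% and 77.7% to 78.9% on arrays 1 to 3, so on array 4 the mark says little about JAZ8. The control channel was marked on arrays 2, 3 and 4, so the filter was met only with array 4 counted.

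The size of the JAZ8 ratio depended on how the background was treated. The offset of 50 units added after background correction pulls the ratios of dim probes towards 0. With plain background subtraction the mean was -0.61 (limma adjusted p = 0.0359). By the scanner software's own log ratio it was -0.88 (limma adjusted p = 0.0557), from -1.21, -1.24, -0.67 and -0.40 on arrays 1 to 4. Over 15 alternatives its adjusted p lay between 0.00285 and 0.631 in limma, below the threshold under 5. With no filter on dim probes the JAZ8 ratios are the same values, so the mean of -0.24 could not change. Only the fit and adjustment across genes differed (limma adjusted p = 0.111). That setting is no separate support, and it rests on the same signals partly at background. The other alternatives kept a filter, and where both channels had to be above background on all arrays JAZ8 was not tested. Without array 4 the JAZ8 mean was -0.22 (limma adjusted p = 0.00766), where 14.2% of all genes were lower at an adjusted p below 0.05.

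JAZ7, which like JAZ8 carries a motif for direct contact with TOPLESS, was close to even. Its ratios were -0.032, 0.031, -0.013 and -0.12 on arrays 1 to 4. The mean was -0.034 ± 0.061 (SE, n = 4), and the interval from -0.18 to 0.11 was among the narrowest of the family. Its spot read 182.5 to 196 units in the control channel on arrays 1 to 3 and 319.5 on array 4. For exposed RNA it read 180 to 203.5 units and 708.5. The higher array 4 signals were in both channels.

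JAZ1 and JAZ2 encode closely related repressors. JAZ1 was one of the first targets of COI1 to be described, and JAZ2 is known from guard cells, where coronatine acts on it to reopen stomata. JAZ1 was above 0 on all arrays, with log2 ratios of 0.054, 0.16, 0.38 and 0.085. Its mean was 0.17 ± 0.076 (SE, n = 4, limma adjusted p = 0.227), with an interval of -0.013 to 0.35. Array 3 was the high array and the other arrays lay near each other. Without array 4 JAZ1 was higher by 1.15-fold (log2 ratio 0.20, limma adjusted p = 0.0312). In that setting 16.8% of all genes were higher at an adjusted p below 0.05. By the scanner software's log ratio it was -0.0043, with no direction left. JAZ2 had ratios of 0.10, 0.025, -0.062 and -0.30, so arrays 1 and 2 lay above 0 and arrays 3 and 4 below. Its mean was -0.059 ± 0.083 (SE, n = 4), with an interval of -0.26 to 0.14.

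JAZ5 and JAZ6 encode another pair of related repressors, both with a motif of the kind that contacts TOPLESS. JAZ5 had ratios of 0.083, -0.059, -0.026 and 0.67 on arrays 1 to 4, so its mean of 0.17 ± 0.13 (SE, n = 4) rested on array 4 and was -0.00075 without it. The signals behind this value moved with the array. The JAZ5 spot read 130 to 138 control units and 124 to 131 exposed units on arrays 1 to 3, and 577 and 1852 on array 4. Dye and exposure cannot be told apart on this array, and the part of its brightness in the ratio was not tested. JAZ6 had ratios of 0.074, -0.052, 0.049 and -0.16, on both sides of 0, with a mean of -0.023 ± 0.068 (SE, n = 4) and an interval of -0.19 to 0.14. The second JAZ6 probe gave a mean of -0.080, with array 4 again the lowest at -0.42.

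**Figure D2:**
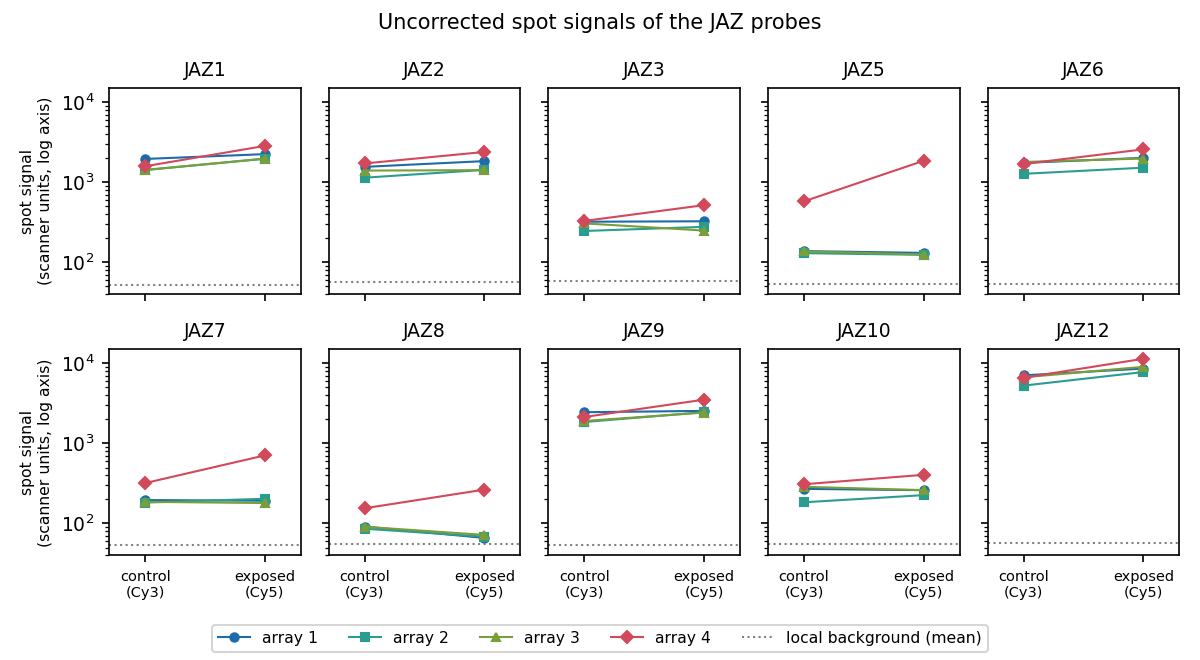
Uncorrected spot signal in scanner units (vertical, log axis) in the control and exposed channel (horizontal) for the probe that stands for each JAZ gene, with one line per array and the mean local background dotted. JAZ5, JAZ7 and JAZ8 are brighter on array 4 in both channels, JAZ5 at 577 and 1852 units against at most 138 on arrays 1 to 3, and JAZ8 lies nearest the background.

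JAZ3 and JAZ9 were read together as a further pair. A truncated JAZ3 protein that cannot be degraded makes plants insensitive to jasmonate, and JAZ9 also binds DELLA proteins of the gibberellin pathway. JAZ3 had ratios of 0.0040, -0.0026, -0.32 and -0.66 on arrays 1 to 4, so arrays 1 and 2 were at 0 and arrays 3 and 4 below it. Its mean was -0.25 ± 0.12 (SE, n = 4, limma adjusted p = 0.262), with 0.00073 on the slide of arrays 1 and 2 and -0.49 on that of arrays 3 and 4. Without array 4 the mean was -0.11. JAZ9 had ratios of -0.095, 0.078, 0.25 and 0.011, with a mean of 0.060 ± 0.075 (SE, n = 4) and an interval of -0.12 to 0.24.

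JAZ10 is a feedback repressor whose transcript is spliced into several forms, some of which encode proteins that resist breakdown. Its brighter probe, which the array names after the transcript AT5G13220.2, gave ratios of -0.047, 0.13, -0.15 and -0.97 on arrays 1 to 4. The mean was -0.26 ± 0.17 (SE, n = 4, limma adjusted p = 0.392) with the widest interval of the family, -0.68 to 0.16, and without array 4 it was -0.022. On the slide of arrays 1 and 2 it was 0.042 and on that of arrays 3 and 4 -0.56. Its spot read 184 to 287 control units on arrays 1 to 3 and 309 on array 4. In the exposed channel it read 226 to 261 units and 405.5. Array 4 was thus the low array for this probe, with signals nearer to those of the other arrays than its median spot had. The dimmer probe, named after AT5G13220.1, gave 0.16 as its mean (limma adjusted p over all probes 0.265) and 0.31 on array 4. That spot read 117.5 to 144.5 control and 129 to 136 exposed units on arrays 1 to 3, and 443 and 1214 on array 4. Which splice forms each probe reads was not analysed here.

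JAZ12 gave the brightest signals, at 5267 to 7075 control units and 7779 to 11391 exposed units. Its protein is bound and kept stable by the ubiquitin ligase KEEP ON GOING, a regulator of abscisic acid signalling. The ratios were 0.053, 0.17, 0.24 and 0.17 on arrays 1 to 4, all above 0. The mean was 0.16 ± 0.063 (SE, n = 4, limma adjusted p = 0.185), with an interval of 0.0081 to 0.31. The second JAZ12 probe gave the opposite sign on every array, with -0.12, -0.15, -0.37 and -0.37 and a mean of -0.25 (limma adjusted p over all probes 0.111). It was also bright, at 3295 to 4288.5 control units. The brighter probe was higher on 4 of 4 arrays, by a mean of 0.41 ± 0.20 (SD, n = 4). An exact two-sided sign-flip test gave p = 0.125, the smallest that 4 arrays allow, and 0.375 after adjustment over the 3 genes with a pair of probes. With 4 arrays this test could not fall below 0.05, so it cannot decide whether the probes differ. For JAZ6 and JAZ10 the same test gave 0.75 and 0.25, adjusted to 0.75 and 0.375. By the ratios themselves, the direction of JAZ12 depended on the probe, and the mean of both probes was -0.044.

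**Figure D3:**
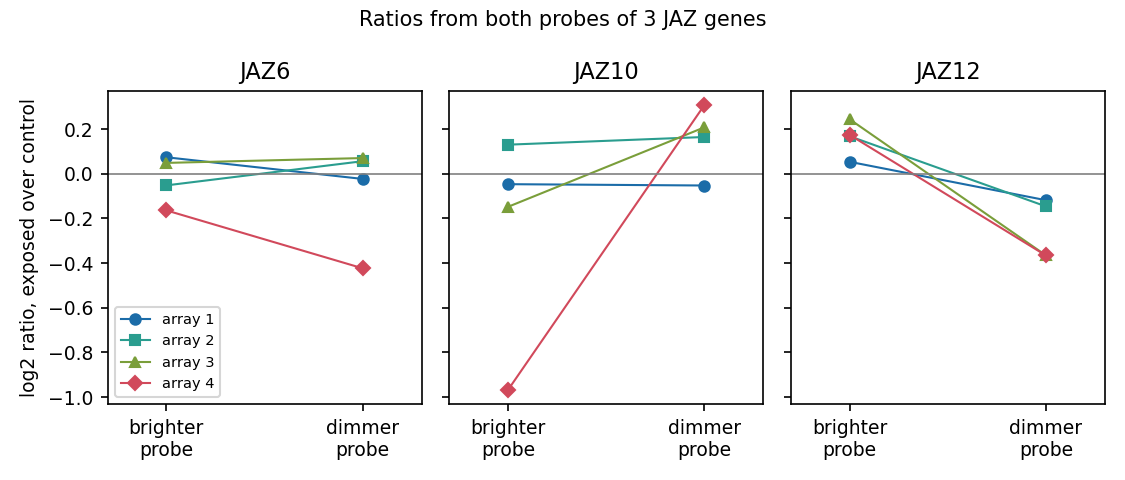
Log2 ratio of exposed over control (vertical axis) from the brighter and the dimmer probe (horizontal axis) of JAZ6, JAZ10 and JAZ12, with one line per array. The JAZ12 lines all fall from above 0 to below 0, and the JAZ10 probes part mainly on array 4, at -0.97 and 0.31.

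Seen by order of their means, the 10 genes ran from JAZ10, JAZ3 and JAZ8 at the low end, through JAZ2, JAZ7, JAZ6 and JAZ9, to JAZ12, JAZ5 and JAZ1 at the high end. The 95% intervals of neighbours in this order overlapped. The 3 low members had means between -0.26 and -0.24 but differed in spread, with SDs over the 4 arrays of 0.49 for JAZ10, 0.32 for JAZ3 and 0.033 for JAZ8. The pairs read together above did not share a sign in 3 of 4 cases, namely JAZ1 with JAZ2, JAZ5 with JAZ6 and JAZ3 with JAZ9. The means of JAZ2, JAZ6, JAZ7 and JAZ9 were smaller than their SE, so their signs are not settled. The 95% intervals of JAZ1, JAZ3, JAZ5 and JAZ10 also included 0, and the second probes of JAZ10 and JAZ12 gave the opposite sign. Each pair thus holds a member without a settled sign, and the count of pairs sharing a sign carries little weight. JAZ7 and JAZ8 were both below 0. No difference between members was tested.

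Outside the 10 genes, 9 other genes of the TIFY family, which share the ZIM domain, were on the array and 8 were tested. None of the 8 passed the test, where 3.40% of all tested genes did. In sign, 4 were above and 4 below 0, with a median of 0.041. The lowest p belonged to JAZ11 (log2 ratio 0.23, limma adjusted p = 0.182), TIFY8 (-0.18) and ZIM (0.11). A second JAZ11 probe gave 0.0068, and the other TIFY8 probes gave 0.087 and -0.029. Without array 4, 4 of these genes were called higher, where 16.8% of all genes were.

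The genes around the JAZ proteins were read from 4 lists by role. Of 15 tested genes of jasmonate perception and JAZ partners, 0 were called and 12 were below 0, where 3.40% and 51% of all tested genes were. Their median ratio was -0.12, and 5 of the 15 had an unadjusted p below 0.05, where 24.8% of all genes did. These counts rest on the brightest probe of each gene. Another probe had the opposite sign for MYC4 (0.082), JAM3 (0.037), NINJA (-0.13) and TPL (-0.31). The lowest p belonged to CUL1, the scaffold of the ubiquitin ligase that holds COI1 (-0.30, limma adjusted p = 0.0566), JAM1, a repressive relative of MYC2 (-0.24), and the receptor gene COI1 (-0.27). COI1 was below 0 on all arrays, at -0.13, -0.15, -0.32 and -0.50. MYC2, named here after its values were seen as the main JAZ target, was at 0.0014 ± 0.081 (SE, n = 4). TPR1, also named after its values were seen, had the lowest mean of this list (-0.46, limma adjusted p = 0.111). It was below 0 on all arrays, with array 4 the lowest at -0.97, and its other probes gave -0.20 and -0.037. Without array 4, 7 genes of this list were called lower, where 14.2% of all genes were.

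Of 13 tested genes of jasmonate synthesis, 1 fell, 12 were not called and none rose, with 11 of the means below 0 (list median -0.14). Of all tested genes 1.82% fell, 1.58% rose and 51% were below 0. The signs rest on the brightest probe of each gene. Other JAR1 probes gave -0.35 and -0.22 against 0.14, and a LOX3 probe gave 0.064 against -0.0070. The called gene was AOC2, an allene oxide cyclase of the plastid part of the pathway. Its ratios were -0.25, -0.30, -0.35 and -0.35 on arrays 1 to 4, with little spread, and it was lower by 1.24-fold (mean -0.31 ± 0.060 SE, n = 4, limma adjusted p = 0.0472). The call was lost with median centring and with no filter on dim probes, under which 0 synthesis genes were called. The other low p belonged to its relatives AOC4 (-0.21) and AOC3 (-0.29). The cyclase genes are similar copies whose probes may read each other's transcripts.

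Of 11 genes of jasmonate turnover, 1 fell, 10 were not called and none rose (list median -0.074). Among all tested genes 1.82% fell and 1.58% rose. JRG21, one of the oxygenases that hydroxylate jasmonic acid, had the lowest mean ratio of the jasmonate lists. It was at -0.72, -0.66, -0.75 and -1.04 on arrays 1 to 4, low on every array. The mean was -0.79 ± 0.082 (SE, n = 4, 1.73-fold lower, limma adjusted p = 0.0162). CYP94C1, an oxidase of the hormone's breakdown, was at -0.22 (limma adjusted p = 0.0993), and AT2G38240 was at -0.19.

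Of 14 output genes 1 rose, 4 fell and 9 were not called (list median -0.15), where 1.58% of all tested genes rose and 1.82% fell. TAT3, a tyrosine aminotransferase gene, rose with 0.71, 0.78, 0.40 and 0.53 on arrays 1 to 4 (mean 0.60 ± 0.082 SE, n = 4, limma adjusted p = 0.0281), and its second probe gave 0.72. The falls were in ANAC019 and ANAC055, NAC transcription factor genes that act downstream of MYC2 (-0.54 and -0.47), the jacalin-related lectin gene JAL23 (-0.45) and the vegetative storage protein gene VSP2 (-0.43). ANAC019 was at -0.71, -0.68, -0.45 and -0.31 on arrays 1 to 4, and ANAC055 at -0.37, -0.49, -0.40 and -0.61, so both were below 0 throughout. Their adjusted p in limma lay between 0.0305 and 0.0386. With median centring 0 output genes were called, and with no filter on dim probes 1 was higher and 1 lower. A second JAL23 probe gave -0.10 and a second VSP2 probe -0.40. CORI3, named after its values were seen, was not called by its brightest probe (-0.34, limma adjusted p = 0.0667). Its other probes gave -0.58 (limma adjusted p over all probes 0.0217) and -0.21 (0.178). The 2 NAC genes also respond to abscisic acid and drought. Without array 1, array 2 or array 3, 0 genes of any of these lists were called, as was the case for all genes, and the same held with arrays 1 to 3 counted as 1 sample. Without array 4, 3 synthesis genes, 3 turnover genes and 7 output genes were called lower and 2 output genes higher, where 14.2% and 16.8% of all genes were.

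**Figure D4:**
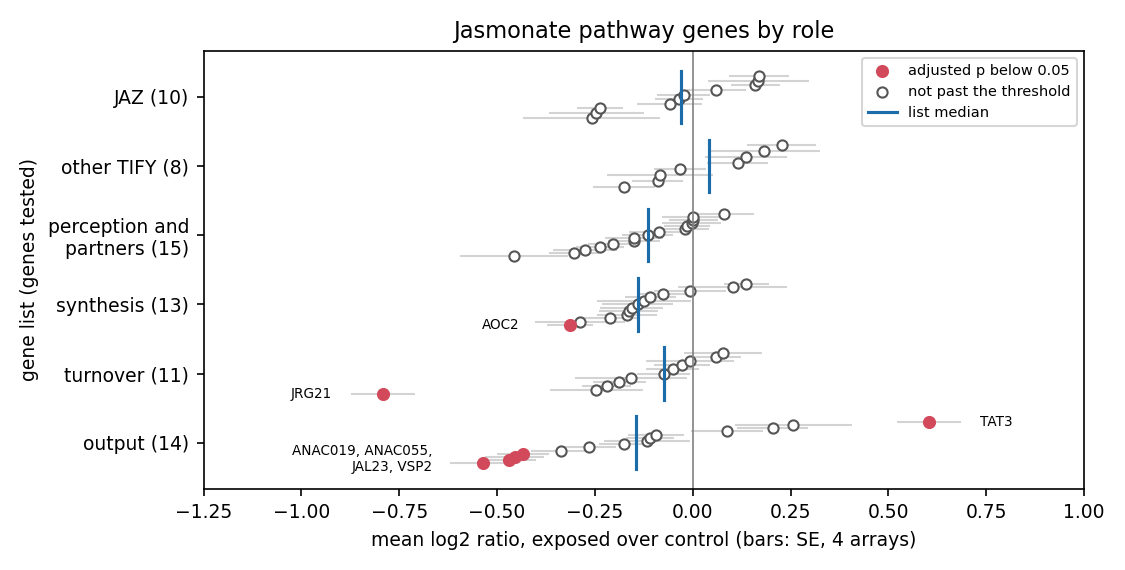
Mean log2 ratio of exposed over control (horizontal axis, bars SE over 4 arrays) for each tested gene of 6 lists (vertical axis), with calls in red and list medians in blue. No JAZ or other TIFY gene is called, and the called genes are AOC2, JRG21, ANAC019, ANAC055, JAL23 and VSP2 below 0 and TAT3 above it.

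The 3 genes outside the family whose ratios on the 4 arrays were closest to those of JAZ8, by Euclidean distance among 22676 genes, were ORP2A, EMB3011 and AT1G66820. The distances were 0.026, 0.036 and 0.043 on the log2 scale. None of the 3 passed the test, with means of -0.23 for each and limma adjusted p between 0.0790 and 0.0859. With 4 arrays such likeness means only that their ratios were similar in size.

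**Figure D5:**
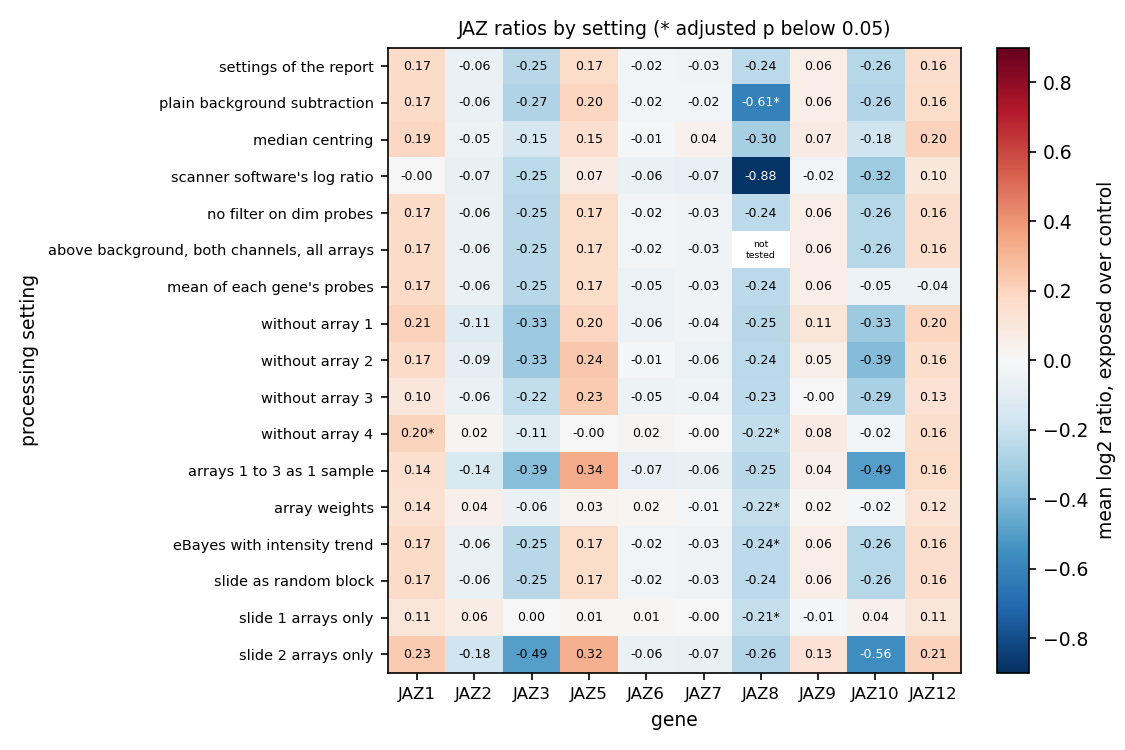
Mean log2 ratio of exposed over control (colour and number) for each JAZ gene (horizontal axis) under each processing setting (vertical axis), with a star where limma's adjusted p was below 0.05. JAZ8, a probe near background, runs from -0.21 to -0.88 with a star in 5 settings and was not tested in 1, and JAZ1 has a star without array 4.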

How the data were processed

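The 4 arrays were analysed in R 4.3.3 with limma 3.58.1. The deposited scanner files hold linear spot intensity for 45220 spots, with local background and quality marks, made with Agilent Feature Extraction (version 11.5.1.1 per the file headers, 8.5.1.1 per the submitters' processing notes). The software's own LogRatio column, deposited on the log10 scale (Cy5 over Cy3 per the file headers), was converted to log2 for an alternative. The deposited series matrix is called log2 of exposed over control per the labels. Within 0.001, its column for array 1 equalled log2 of processed Cy5 over Cy3 at 45220 spots. Those of arrays 2, 3 and 4 equalled log2 of a quotient with the error of the Cy3 signal on top and processed Cy5 below, at 45219, 45220 and 45220 spots (column medians -0.0423, -3.17, -3.17 and -3.19), so it was not used further.

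Median signals were corrected by normexp (offset 50) and normalized by loess within arrays, with control and outlier spots at weight 0. No gene spot was saturated. Probes were tested if at least 3 arrays had them well above background in one and the same channel, and the brightest tested probe stood for its gene. Ratios were tested against 0 with lmFit and eBayes, two-sided, with Benjamini-Hochberg adjustment over 22694 genes and a threshold of 0.05. The code was tested on simulated data. Array number and spot signal limit the precision. JAZ genes and lists (8 lists, 87 of 91 genes tested) were chosen with earlier results of these data known. All JAZ genes are named, with the called genes of each other list or, where fewer than 3 were called, those with the lowest p up to 3. Some genes, among them those whose other probes gave another call or sign, were added after their values were seen. Symbols come from an NCBI table of TAIR10.1, whose build differs from that of the files, so no coordinates are given. Alternatives covered background, normalization, filter, probes, arrays left out or weighted, the eBayes prior and the slide.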

Additional observations from a re-analysis of the deposited data

How the results depend on the processing

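Over 16 alternatives, of which 3 treat the slide (a random block, and each slide alone) and were chosen after seeing the data, no JAZ gene other than JAZ1 and JAZ8 was called. JAZ8 was called lower with plain subtraction, array weights, an intensity trend in eBayes, on the slide of arrays 1 and 2 alone and without array 4 (1 JAZ gene lower in each), and could not be tested where both channels had to be above background on all arrays. Leaving out single arrays gave 0 to 1 JAZ genes higher and 0 to 1 lower, and 0 to 3820 of all genes higher and 0 to 3233 lower. Signs changed for JAZ1 (-0.0043) and JAZ9 (-0.023) by the scanner software's ratio, JAZ7 with median centring (0.042), JAZ12 with the mean of its probes (-0.044), JAZ2 and JAZ6 with array weights (0.042 and 0.018), JAZ9 without array 3 (-0.0021) and JAZ2, JAZ5 and JAZ6 without array 4 (0.022, -0.00075 and 0.023). On the slide of arrays 1 and 2 alone they changed for JAZ2 (0.065), JAZ3 (0.00073), JAZ6 (0.011), JAZ9 (-0.0086) and JAZ10 (0.042). The cause was not tested. Leaving out single arrays moved JAZ2 between -0.11 and 0.022, JAZ5 between -0.00075 and 0.24, JAZ6 between -0.056 and 0.023 and JAZ9 between -0.0021 and 0.11. Over all genes, plain subtraction called 657 higher and 488 lower, median centring 161 and 50, the scanner software's ratio 579 higher and 530 lower, no filter on dim probes 156 and 136, array weights 4431 and 3844, and an intensity trend 1035 and 1234. The slide of arrays 1 and 2 gave 4313 and 3630, and that of arrays 3 and 4 gave 0 and 0, as did arrays 1 to 3 counted as 1 sample. The calls of the other jasmonate lists changed too, with output at 0 higher and 0 lower and synthesis at 0 lower under median centring, and output at 1 higher and 1 lower and synthesis at 0 lower with no filter on dim probes. Turnover kept its count of 1 lower under both. The JAZ median lay between -0.067 and 0.019. No paired analysis was possible because the 4 samples form 1 group and each array already holds both conditions.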
